A study of Rattus norvegicus with 20 samples.

Results

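The heat shock and chaperone genes described here were 8 listed genes, taken as every probe set of the Affymetrix rat expression array that the platform annotation gives to 1 of them and to no other gene. This rule found 8 probe sets of 6 genes, among 20826 single-gene probe sets of 14217 genes and 31099 probe sets in all. Hspb1, Cryab, Hspa5 and Hspd1 had 1 probe set each, and Hsph1 and Dnajb1 had 2 each. Hspa8, the constitutive cytosolic Hsp70, and Hsp90aa1, a cytosolic Hsp90, were named only on 3 probe sets that the annotation also gives to another gene, so no value is reported for them.

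The study measured the failed heart of a Dahl rat in congestive heart failure and the normal heart of a Dahl rat. Dahl rats are bred for a blood pressure response to dietary salt. A high-sodium diet is named in the label of the failed mRNA sample only. An age of 19 weeks is given for every sample but the normal H4ac sample, which has none. Each heart had 10 arrays of 1 sample each: mRNA, genomic DNA before immunoprecipitation (pre-IP), and chromatin immunoprecipitates (ChIP) of 8 histone marks. The marks were acetylation of H3 (H3ac) and H4 (H4ac), di- and trimethylation of K4 and of K9 (K4me2, K4me3, K9me2 and K9me3), trimethylation of K20 (K20me3) and dimethylation of K27 (K27me2), the methylations with no histone named. The design names a single left ventricle specimen for each experiment, and the labels call the mRNA source left ventricular myocytes. The normal H4ac sample names pre-IP genomic DNA as its source but acetylated H4 in its other fields, and it was used as H4ac. With 1 array per group there was no replicate, no error and no test: every difference below compares 2 arrays. The probes lie in transcripts, so a ChIP value describes DNA under those transcript probes and not a promoter.

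Chaperones bind unfolded or partly folded proteins, keep them from aggregating and help them fold. Small heat shock proteins hold unfolding clients without ATP, Hsp70 proteins cycle on and off clients with the help of J proteins and nucleotide exchange factors, and chaperonins enclose a client in a folding chamber. In heart muscle, small heat shock proteins bind sarcomere and intermediate filament proteins, and inherited variants of Cryab, the gene of alphaB-crystallin, cause desmin-related myopathy. The transcription factor Hsf1 binds inverted repeats of the unit nGAAn in the promoters of many of these genes.

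The promoters of 4 member genes are printed because they show both kinds of known stress element in the group, the heat shock repeat and the endoplasmic reticulum (ER) stress element. They come from RefSeq on build GRCr8 and run from 250 bases before to 50 after the start of the gene, 5′ to 3′ on the gene's strand. Capitals mark matches to a pair of heat shock units, GAANNTTC or TTCNNGAA, which read the same on both strands and may overlap, and in Hspa5 a match to the ER stress element, CCAAT and CCACG 9 bases apart, searched on both strands. The windows are chr12:26432252-26432551, minus strand, for Hspb1, chr3:38452766-38453065, plus strand, for Hspa5, chr12:10427118-10427417, plus strand, for Hsph1 and chr9:64083988-64084287, minus strand, for Hspd1.
Hspb1: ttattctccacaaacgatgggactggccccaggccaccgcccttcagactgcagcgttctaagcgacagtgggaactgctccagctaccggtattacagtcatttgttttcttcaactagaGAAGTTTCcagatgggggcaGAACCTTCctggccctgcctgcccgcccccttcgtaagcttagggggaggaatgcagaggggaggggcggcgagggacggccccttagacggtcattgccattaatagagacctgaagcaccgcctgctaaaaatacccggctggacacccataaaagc
Hspa5: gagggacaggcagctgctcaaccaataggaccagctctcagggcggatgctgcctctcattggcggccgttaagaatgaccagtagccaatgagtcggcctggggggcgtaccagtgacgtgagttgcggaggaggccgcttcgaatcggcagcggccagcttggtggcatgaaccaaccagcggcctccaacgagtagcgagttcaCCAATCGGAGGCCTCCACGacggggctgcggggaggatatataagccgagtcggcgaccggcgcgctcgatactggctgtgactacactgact
Hsph1: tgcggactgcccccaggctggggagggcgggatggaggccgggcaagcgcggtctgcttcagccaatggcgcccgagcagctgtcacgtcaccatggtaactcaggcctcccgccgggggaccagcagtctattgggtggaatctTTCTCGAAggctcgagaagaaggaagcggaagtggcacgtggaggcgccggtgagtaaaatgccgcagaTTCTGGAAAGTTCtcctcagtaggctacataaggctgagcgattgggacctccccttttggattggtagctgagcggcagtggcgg
Hspd1: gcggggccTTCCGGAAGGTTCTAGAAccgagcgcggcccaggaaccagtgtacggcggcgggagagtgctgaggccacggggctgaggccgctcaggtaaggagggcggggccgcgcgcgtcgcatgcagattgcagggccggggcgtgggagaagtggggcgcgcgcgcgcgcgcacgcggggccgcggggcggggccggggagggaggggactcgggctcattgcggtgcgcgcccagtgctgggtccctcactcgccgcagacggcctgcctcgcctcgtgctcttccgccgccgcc
Of the 6 members in the promoter table, 5 held a heat shock pair (Hspb1, Hspa8, Hsph1, Dnajb1 and Hspd1), against 15.9% of all 33469 promoters in that table. The share of promoters was 8.59% for GAANNTTC and 8.77% for TTCNNGAA. In Hspb1 the 2 pairs began at bases -129 and -109, counted from the start of the gene, and in Hsph1 the 3 began at -105, -36 and -31. Hspa5 held no such pair but was among the 22 promoters, 0.0657%, with the ER stress element, which began at base -43. In Hspd1 3 overlapping pairs formed 1 run, and the same run began at base -65 of Hspe1, the gene of its partner Hsp10, in the neighbouring window on the other strand. A match is a description of letters in a window, not a site or a cause, and no array here measured these windows as such.

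Values are intensities on a scale where the median of every array is 100, with a floor of 10 that no member value reached. Differences are log2 of the failed heart minus log2 of the normal heart, and 2-fold (a difference of 1 or more in size) was used for counts. Counts took only probe sets that passed a level filter, that is, whose mean log2 level on the arrays in question reached the median of all probe sets. In bulk tissue, fewer cells of a type and less RNA per cell cannot be told apart.

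The mRNA signal of Cryab and Hspd1 was more than 2-fold higher in the failed heart, that of Hspb1 and Hspa5 was less than 2-fold higher, that of Dnajb1 was less than 2-fold lower, and the 2 probe sets of Hsph1 lay on opposite sides. Of the 7 member probe sets past the level filter, 2 were 2-fold higher in the failed heart, where 11.7% of all single-gene probe sets past the filter were, and 1 was 2-fold lower, where 3.38% were. The median difference was 0.43 over the 8 member probe sets and 0.11 over all single-gene probe sets. After quantile normalization in place of the median scaling, the members' median was -0.07, with 3 of 8 above 0 in place of 5 of 8, and only Cryab stayed 2-fold higher. The values of all genes past the filter moved down as well. Their median was 0.01, with 4711 of 9317 above 0, in place of 0.23 with 5959 above 0.

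Among the small heat shock proteins, Cryab is a client-holding chaperone of desmin and titin in striated muscle. Its signal was 18517 in the failed heart and 5057 in the normal heart, a difference of 1.87 on the log2 scale or 3.66-fold. The value as deposited gave 1.61 and quantile normalization gave 1.20, so the failed heart stayed more than 2-fold higher under both. Hspb1, the actin-binding Hsp27 (rodent Hsp25), had 6464 in the failed heart and 4492 in the normal heart. That difference of 0.53 was below 2-fold and turned to -0.13 with quantile normalization.

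Hspa5 (BiP) is the Hsp70 of the ER and holds the sensors of the unfolded protein response in check. Its mRNA signal was 6660 in the failed heart and 4856 in the normal heart. The difference of 0.46 was below 2-fold and was -0.23 with quantile normalization, so its direction depended on the scaling.

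Hsph1 (Hsp110) releases ADP from Hsp70 and helps to dissolve aggregates. Its first probe set had 914 in the failed heart and 692 in the normal heart, a difference of 0.40. Its second, dimmer probe set had 67.6 in the failed heart and 158 in the normal heart, a difference of -1.22. The probe sets of this gene therefore gave no common direction. Dnajb1 (Hsp40) delivers clients to Hsp70 and starts its ATP hydrolysis. Its first probe set had 534 in the failed heart and 589 in the normal heart, a difference of -0.14. The second had 12.2 in the failed heart and 13.6 in the normal heart and was below the level filter.

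Hspd1 (Hsp60) is the chaperonin of the mitochondrial matrix. Its signal was 7196 in the failed heart and 2614 in the normal heart, a difference of 1.46 or 2.75-fold. With quantile normalization this was 0.84, below 2-fold. Its neighbour and partner Hspe1 had 3777 in the failed heart and 1495 in the normal heart, a difference of 1.34, and 0.80 with quantile normalization. For scale, the known failure genes Nppa and Nppb differed by 4.30 and 2.46.

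**Figure D1:**
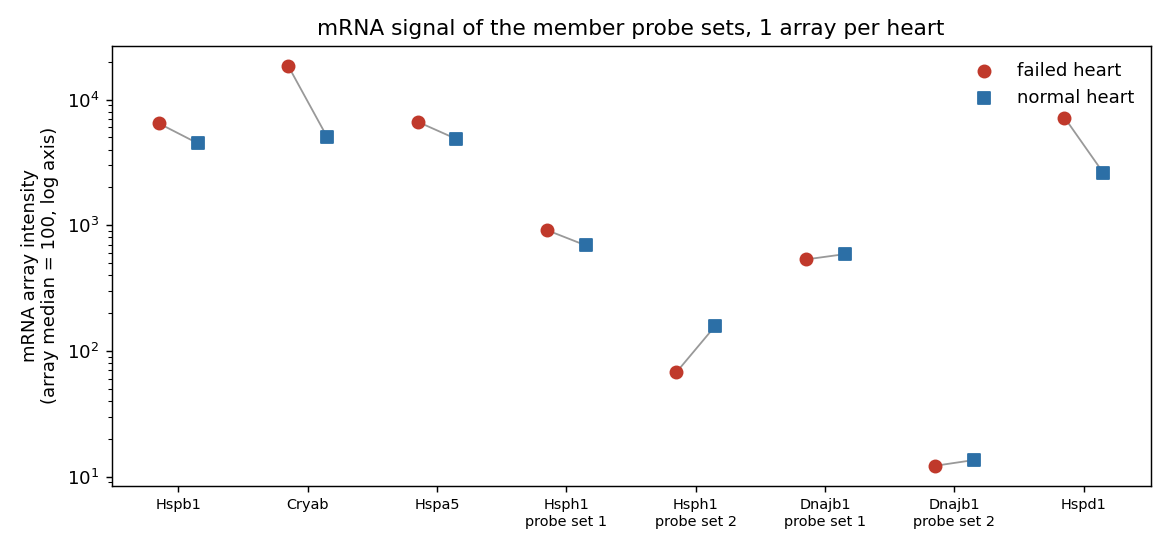
mRNA intensity of the 8 member probe sets on the failed (red circles) and normal (blue squares) array, with the array median at 100 and a log axis. Each point is 1 array; the widest gaps are at Cryab, 18517 against 5057, and Hspd1, 7196 against 2614, both higher in the failed heart, and at the second Hsph1 probe set, 67.6 against 158, lower in the failed heart.

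The wider chaperone network was described with 90 other heat shock and chaperone genes, 1 probe set per gene, of which 88 were measured and 84 passed the level filter. Of these, 19 were 2-fold higher and 0 were 2-fold lower in the failed heart, where 11.8% of all genes past the filter were higher and 3.14% were lower. Their median difference was 0.60, against 0.23 over all genes past the filter. The count depended on the scaling: the values as deposited gave 8 higher and 2 lower, and quantile normalization 7 higher and 1 lower. The shares of all genes under these scalings are not given here, but the medians of all genes fell too. The list's median was 0.33 against -0.04 over all genes past the filter with the values as deposited. With quantile normalization it was 0.32 against 0.01. The list was chosen with earlier results of these data known, so its distance from all genes is a description only.

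The small heat shock proteins of this list, which leaves out the members Hspb1 and Cryab, stood highest, with 5 of the 5 genes past the filter 2-fold higher in the failed heart, a range of 1.38 to 3.05 and a median of 1.91. The family was not uniform: Cryab was 2-fold higher as well, while Hspb1, at 0.53, was not. All 5 of the list stayed 2-fold higher with the values as deposited and after quantile normalization, with medians of 1.64 and 1.33. Hspb7, which binds filamin C and actin in muscle, had 4870 in the failed heart and 587 in the normal heart, a difference of 3.05 or 8.29-fold. Hspb8, the partner of Bag3 in clearing damaged proteins, had 3135 in the failed heart and 633 in the normal heart, a difference of 2.31. These 2 genes each had a second probe set that did not follow, at -0.09 for Hspb7 and -0.85 for Hspb8. With the mean over its probe sets, Hspb7 was at 1.48 and Hspb8 at 0.73, below 2-fold, so that 4 of the 5 were 2-fold higher and the median was 1.41. Hspb6, the muscle Hsp20, had 14918 in the failed heart and 3979 in the normal heart, a difference of 1.91. Hspb2, which lies beside Cryab, had 266 in the failed heart and 99.8 in the normal heart. Hspb3, which forms a complex with Hspb2, had 1137 in the failed heart and 437 in the normal heart. The lens crystallin gene Cryaa was below the filter, with 11.6 in the failed heart and 29.5 in the normal heart.

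The other roles lay closer to all genes, of which 11.8% past the filter were 2-fold higher, with a median of 0.23. Among the chaperonins, which here are Hspe1 and the cytosolic CCT subunits, 3 of 9 were 2-fold higher and the median was 0.80. Among the J proteins 3 of 13 were, with a median of 0.61. The largest of these was Dnaja4, a cytosolic Hsp70 co-chaperone, with 2817 in the failed heart and 994 in the normal heart, a 2.84-fold difference that was 0.24 on the log2 scale at its other probe set. Of the Hsp70 family, 1 of 9 was 2-fold higher (median 0.49), of the Hsp90 family 0 of 3 (median 0.67), of the ER chaperones and stress factors 3 of 15 (median 0.58), of the prefoldins 1 of 5 (median 0.85), of the co-chaperones 3 of 17 (median 0.27) and of the mitochondrial quality control genes 0 of 5 (median 0.45). Of the heat shock factors 0 of 3 were, and their median was -0.19. Other probe sets of a gene could lie far from the one used: the 4 of Hsf2 ran from -1.30 to 1.46, and the 3 of Dnajb5 from -2.71 to 2.18.

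The genes with the lowest differences did not reach 2-fold at the probe set used. Hsf4, a heat shock factor best known in the lens, had 126 in the failed heart and 223 in the normal heart, a difference of -0.82. Stip1 (Hop), which bridges Hsp70 and Hsp90, had 376 in the failed heart and 642 in the normal heart, a difference of -0.77. These 2 differences were -1.09 and -1.04 with the values as deposited, past 2-fold. Hspa12b, an Hsp70 of endothelium, had 247 in the failed heart and 401 in the normal heart, and its 3 probe sets ran from -1.39 to -0.56. Stub1 (CHIP), the ubiquitin ligase that takes clients from Hsp70, had a difference of -0.50. Hsf1 itself had 196 in the failed heart and 224 in the normal heart, a difference of -0.19.

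**Figure D2:**
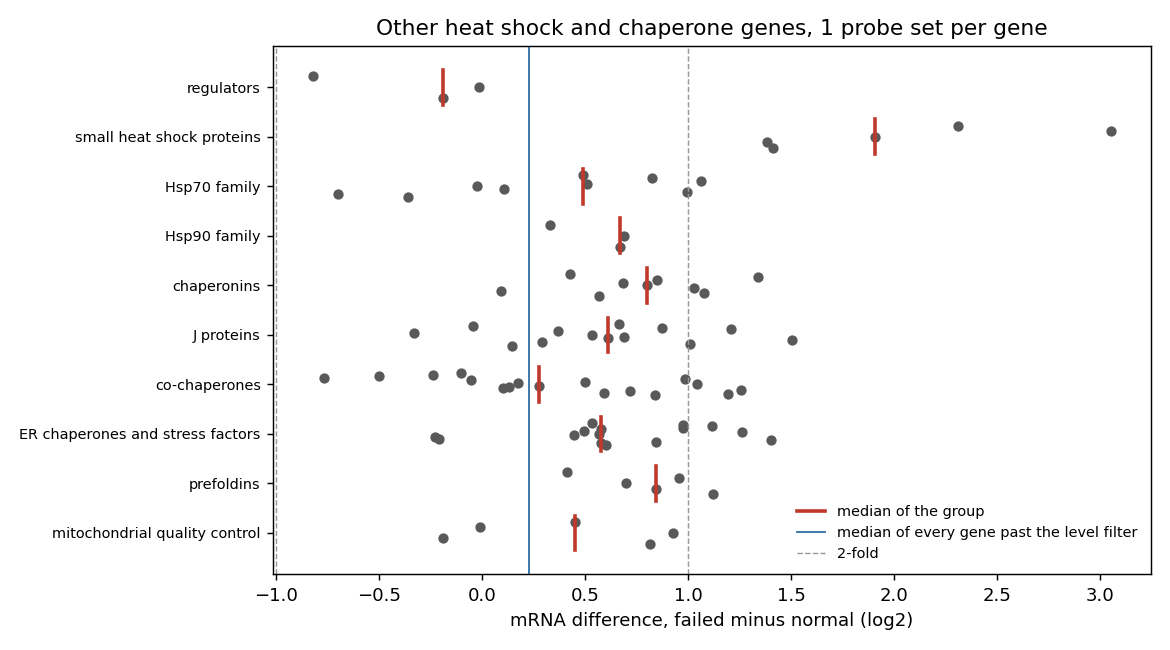
mRNA differences (failed minus normal, log2) of the 84 listed genes past the level filter, by role, 1 point per gene and 1 array per heart; red bars are group medians, the blue line the median of all genes past the filter, 0.23, and dashed lines 2-fold. The 5 small heat shock proteins, from 1.38 to 3.05, all lie right of the 2-fold line.

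The 2 mRNA arrays differed in other ways, and the part of these in the differences above was not tested. As deposited, all 20 arrays had a trimmed mean of 500.03 to 500.17, with medians of 189 to 415. The median was 189 on the failed and 227 on the normal mRNA array, a log2 difference of -0.27 that the main scaling removes, and the floor touched 11.0% of probe sets on the failed and 9.67% on the normal mRNA array. The signal of 3′ over 5′ probe sets was 22.6 in the failed heart and 11.3 in the normal heart for GAPDH, and 12.4 in the failed heart and 18.2 in the normal heart for beta-actin. The source is labelled as myocytes, and 9 of 9 measured cardiomyocyte markers passed the level filter, as did 7 of 7 of fibroblasts, 6 of 6 of endothelium and 5 of 5 of smooth muscle. Of all genes past the filter, 11.8% were 2-fold higher and 3.14% were 2-fold lower. Cardiomyocyte markers summed to 162200 in the failed heart and 132649 in the normal heart, with 3 of 9 measured markers 2-fold higher and 1 lower. Macrophage and leukocyte markers summed to 9953 in the failed heart and 2482 in the normal heart. Of the 7 past the level filter, 2 were 2-fold higher (C1qb and Itgam were below it). Fibroblast markers summed to 42821 in the failed heart and 20124 in the normal heart (3 of 7 2-fold higher), and smooth muscle markers to 2380 in the failed heart and 5595 in the normal heart (5 of 5 2-fold lower). Endothelial markers summed to 11104 in the failed heart and 11784 in the normal heart (1 of 6 higher). Red cell markers summed to 4359 in the failed heart and 1229 in the normal heart. Of the 3 past the filter, 1 was 2-fold higher (Epb42 was below it). Adipocyte markers summed to 3642 in the failed heart and 4200 in the normal heart. Of the 2 past the filter, 0 differed 2-fold (Plin1, Cidec and Lep were below it).

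The pre-IP arrays hold no immunoprecipitation and give the size of differences between DNA arrays at the same probe sets. Of the 7 member probe sets past the level filter, 1 differed 2-fold between the hearts before any immunoprecipitation, where 7.66% of all probe sets past the filter did. It was Hspa5, with 147 in the failed heart and 66.7 in the normal heart, a difference of 1.14. The other members ran from -0.77 (first Dnajb1 probe set, 147 in the failed heart and 250 in the normal heart) to 0.65 (Hspb1, 393 in the failed heart and 250 in the normal heart). Every enrichment below is the log2 ChIP value less the log2 pre-IP value of that heart, so all 8 marks of a heart share its pre-IP array.

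Histone marks at the members fell into contrasting patterns. Hspb1 and Cryab lay 2-fold or more below pre-IP in both hearts for K9me2, K20me3 and K27me2, marks that are known mainly from silent chromatin when they stand on their usual histones. Hspd1 lay below pre-IP for H3ac and H4ac, marks known from active chromatin, in both hearts, and Hsph1 lay above pre-IP for K9me3. The pre-IP signal of Hspd1 was the highest among the members, at 997 in the failed heart and 887 in the normal heart. Pre-IP was also above the array median of 100 at Hspb1, 393 in the failed heart and 250 in the normal heart. At Cryab it was 258 in the failed heart and 281 in the normal heart. The K9me2, K20me3 and K27me2 signals themselves ran from 75.1 to 148 at Hspb1 and from 77.6 to 108 at Cryab, around that median. These patterns describe DNA under transcript probes.

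At Hspb1, K9me2 enrichment was -1.75 in the failed heart and -1.18 in the normal heart. Its K20me3 enrichment was -1.61 in the failed heart and -1.74 in the normal heart, and its K27me2 enrichment was -1.41 in the failed heart and -1.23 in the normal heart. H3ac lay on the other side of pre-IP, at 0.89 in the failed heart and 1.35 in the normal heart, as did K4me2, at 0.88 in the failed heart and 1.50 in the normal heart. H4ac was -0.01 in the failed heart and 0.54 in the normal heart. K9me3 was -1.16 in the failed heart and -0.79 in the normal heart. The largest difference between the hearts at Hspb1 was for K4me3, with -0.63 in the failed heart and 0.66 in the normal heart, a difference of -1.29. The K4me3 signal itself was 253 in the failed heart and 395 in the normal heart, a difference of -0.64 that did not reach 2-fold without the pre-IP correction.

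At Cryab, whose mRNA differed most, no mark differed 2-fold between the hearts, and the 8 differences ran from -0.53 (K4me2) to 0.53 (K9me3). K9me2 enrichment was -1.73 in the failed heart and -1.39 in the normal heart. K20me3 enrichment was -1.26 in the failed heart and -1.40 in the normal heart, and K27me2 enrichment was -1.71 in the failed heart and -1.69 in the normal heart. H3ac was close to pre-IP, at 0.02 in the failed heart and 0.47 in the normal heart, and so was K4me2, at -0.38 in the failed heart and 0.14 in the normal heart. H4ac was -0.54 in the failed heart and -0.56 in the normal heart, K4me3 -0.20 in the failed heart and -0.30 in the normal heart, and K9me3 -0.30 in the failed heart and -0.83 in the normal heart. The adjacent gene Hspb2 had its K27me2 enrichment on the same side, at -1.41 in the failed heart and -1.18 in the normal heart. For the other 2 marks Hspb2 was not 2-fold below pre-IP in both hearts. It had K9me2 at -1.29 in the failed heart and -0.51 in the normal heart, and K20me3 at 0.01 and -0.66. Its acetylation and K4me2 lay well above pre-IP: H3ac enrichment at Hspb2 was 1.58 in the failed heart and 2.61 in the normal heart, and K4me2 enrichment was 2.23 in the failed heart and 2.74 in the normal heart.

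Hspa5 had the largest differences between the hearts. K4me2 enrichment was 0.95 in the failed heart and 2.84 in the normal heart, a difference of -1.89. K4me3 was -0.40 in the failed heart and 1.48 in the normal heart, also a difference of -1.89. Both K4 marks were lower in the failed heart. H3ac was 0.17 in the failed heart and 1.78 in the normal heart, a difference of -1.61, and K9me3 was -0.28 in the failed heart and 1.75 in the normal heart, a difference of -2.04. These values move with the pre-IP difference of 1.14 at this probe set. From the ChIP arrays alone, the differences were -0.75 for K4me2, -0.74 for K4me3, -0.47 for H3ac and -0.90 for K9me3, all in the same direction and none 2-fold. The other marks were below the level filter. Of these, H4ac was -0.60 in the failed heart and 0.25 in the normal heart. K9me2 lay below pre-IP in both and differed by 0.13. K20me3 was -1.87 in the failed heart and -0.50 in the normal heart. K27me2 was -2.28 in the failed heart and -0.06 in the normal heart. Without pre-IP these dim marks did not share a direction, with differences of 0.29 for H4ac and -0.22 for K20me3. K9me2 and K27me2 passed 2-fold in opposite directions. The K9me2 signal was 80.5 in the failed heart and 33.3 in the normal heart, a difference of 1.27. The K27me2 signal was 30.2 in the failed heart and 63.8 in the normal heart, a difference of -1.08.

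**Figure D3:**
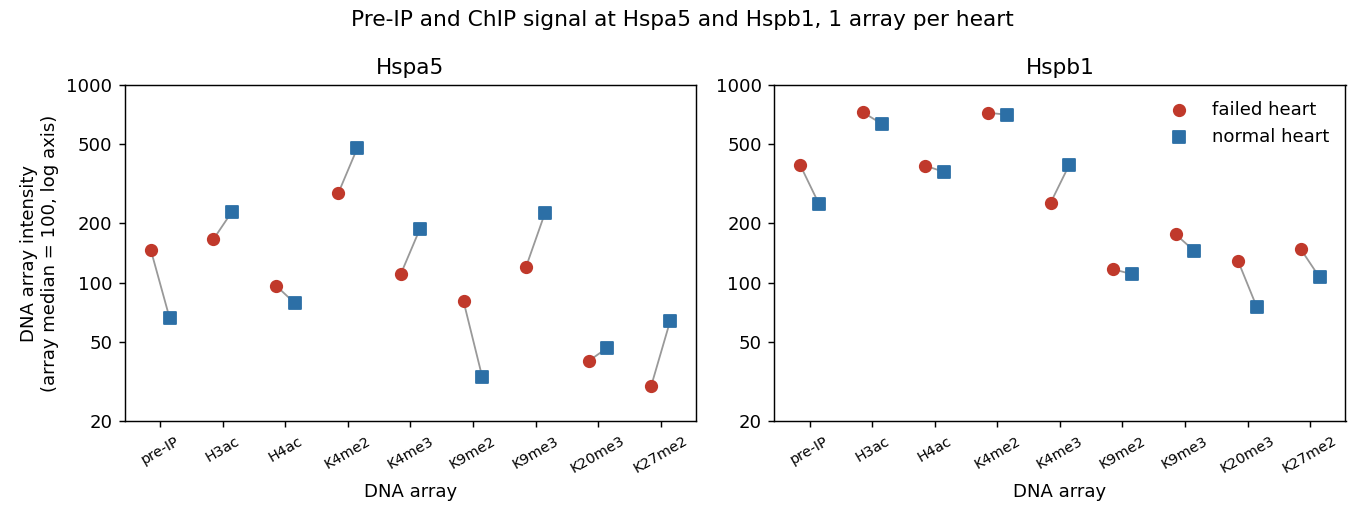
Intensity of Hspa5 (left) and Hspb1 (right) on the pre-IP array and the 8 ChIP arrays of the failed (red circles) and normal (blue squares) heart, with the array median at 100 and a log axis; each point is 1 array. At Hspa5 the pre-IP signal is higher in the failed heart, 147 against 66.7, while the K4me2 signal is lower, 285 against 478.

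The probe sets of Hsph1 differed from one another on these arrays too. At the first, K9me3 enrichment was 1.02 in the failed heart and 1.77 in the normal heart, the only member value 2-fold above pre-IP in both hearts. At the second it was 0.80 in the failed heart and 0.31 in the normal heart. That probe set had H3ac enrichment of -0.05 in the failed heart and -1.32 in the normal heart, a difference of 1.27, and K4me2 enrichment of -0.40 in the failed heart and -1.76 in the normal heart, a difference of 1.36. Without pre-IP these differences were 0.85 and 0.94, below 2-fold. At the first probe set the same 2 marks were below the level filter, with enrichment differences of -0.20 for H3ac and -0.74 for K4me2. The higher enrichment in the failed heart thus did not recur there. Without pre-IP these differences were 0.39 for H3ac, also higher in the failed heart, and -0.15 for K4me2.

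At the first Dnajb1 probe set, K27me2 enrichment was 0.20 in the failed heart and -1.11 in the normal heart, a difference of 1.31. On the ChIP arrays alone it was 168 in the failed heart and 116 in the normal heart, a difference of 0.54. At the second probe set, K27me2 differed by -0.09, and the 2-fold difference there was in K20me3. The K20me3 enrichment was -1.40 in the failed heart and -0.32 in the normal heart, a difference of -1.08. Without pre-IP the K20me3 signal was 75.0 in the failed heart and 157 in the normal heart, a difference of -1.07. K9me2 at the second probe set was -1.57 in the failed heart and -1.91 in the normal heart, and at the first -0.59 in the failed heart and -0.94 in the normal heart. K4me2 lay above pre-IP at both, at 0.87 in the failed heart and 0.43 in the normal heart for the first and 1.17 in the failed heart and 0.97 in the normal heart for the second.

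At Hspd1, H3ac enrichment was -1.69 in the failed heart and -1.01 in the normal heart. These are ratios to a bright pre-IP signal, 997 in the failed heart and 887 in the normal heart. The H3ac signal itself was 309 in the failed heart and 440 in the normal heart, and the H4ac signal 508 and 502. All 4 lay above the array median of 100. H4ac enrichment was -0.97 in the failed heart and -0.82 in the normal heart, and K4me2 was -0.78 in the failed heart and -0.71 in the normal heart. K9me2 lay above pre-IP, at 0.44 in the failed heart and 0.59 in the normal heart, and K20me3 was 0.39 in the failed heart and 0.19 in the normal heart. No mark differed 2-fold between the hearts, although the mRNA did. The adjacent Hspe1 lay on the other side of pre-IP for acetylated H3, with H3ac enrichment of 0.82 in the failed heart and 0.69 in the normal heart, and for K4me2, with 1.30 in the failed heart and 0.59 in the normal heart. Its pre-IP signal was dimmer than that of Hspd1, at 231 in the failed heart and 296 in the normal heart.

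**Figure D4:**
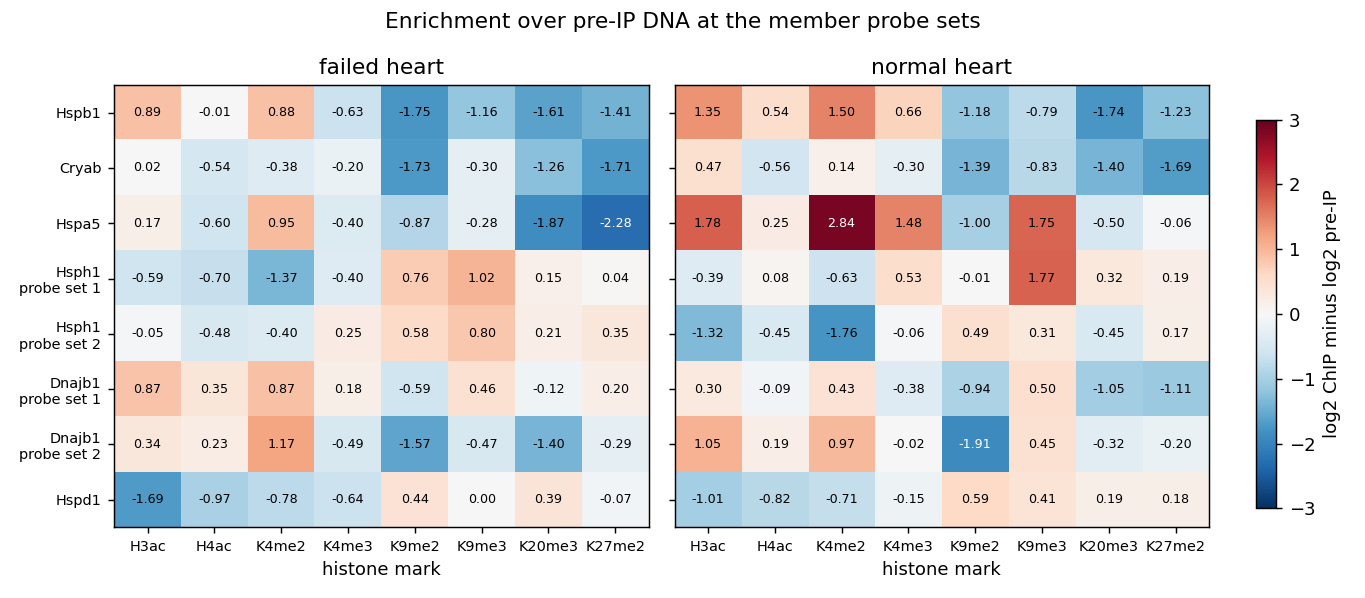
Enrichment (log2 ChIP minus log2 pre-IP) of 8 histone marks at the 8 member probe sets in the failed (left) and normal (right) heart, 1 ChIP array and 1 shared pre-IP array per heart; red is above and blue below pre-IP. Hspb1 and Cryab are blue for K9me2, K20me3 and K27me2 in both hearts, Hspd1 is blue for H3ac, and Hspa5 is darkest red for K4me2 in the normal heart, 2.84.

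With 6 to 8 member probe sets past the filter, small counts cannot be set apart from the shares of all probe sets. Counted over the members, enrichments 2-fold above pre-IP in both hearts were 0 or 1 for each mark. They were 0 of 7 for H3ac, 0 of 6 for H4ac, 0 of 7 for K4me2 and 0 of 8 for K4me3, where 10.6%, 4.41%, 18.4% and 0.756% of all probe sets past the filter were. They were 0 of 7 for K9me2, 1 of 8 for K9me3, 0 of 7 for K20me3 and 0 of 7 for K27me2, where 4.25%, 2.24%, 1.26% and 1.24% of all probe sets were. Enrichments 2-fold below pre-IP in both hearts were 3 of 7 for K9me2 (Hspb1, Cryab and the second Dnajb1 probe set), where 9.88% of all were, 2 of 7 for K20me3, where 5.12% were, and 2 of 7 for K27me2, where 7.73% were. For H3ac the count was 1 of 7 (Hspd1, background 1.32%), and for H4ac, K4me2, K4me3 and K9me3 it was 0, with backgrounds of 1.23%, 1.39%, 0.625% and 5.78%.

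Counts of 2-fold differences between the hearts rested on at most 2 probe sets for each mark. Members past the filter with such a difference were 2 of 7 for H3ac (background 19.5%), 0 of 6 for H4ac (11.2%), 2 of 7 for K4me2 (18.1%) and 2 of 8 for K4me3 (19.1%). They were 0 of 7 for K9me2 (25.4%), 1 of 8 for K9me3 (21.2%), 1 of 7 for K20me3 (17.3%) and 1 of 7 for K27me2 (13%). Of the 9 differences, 4 were at Hspa5. Over the 8 probe sets the median K9me2 enrichment was -0.73 in the failed heart and -0.97 in the normal heart, where the medians of all single-gene probe sets were -0.02 in the failed heart and -0.06 in the normal heart. The median K4me2 enrichment was 0.24 in the failed heart and 0.29 in the normal heart, where the medians of all single-gene probe sets were 0.05 in the failed heart and 0.04 in the normal heart. The members' K4me2 medians changed sign with the scaling: they were -0.44 in the failed heart and -0.16 in the normal heart with the values as deposited, and -0.37 in the failed heart and -0.16 in the normal heart with quantile normalization.

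Across its 16 enrichment values, 8 marks in each heart, Hspb1 was most like Cryab among the members (Pearson r = 0.85) and least like Hspd1 (r = -0.80). Cryab and Hspd1, the members with the largest mRNA differences, had an r of -0.76. The r was 0.62 between the probe sets of Dnajb1 and 0.54 between those of Hsph1. These r values describe 16 points that share 1 pre-IP array per heart and the same probes in both hearts. Over all genes, those most like Cryab by this measure were Itgad (r = 0.93), an integrin alpha chain of leukocytes, Pnrc2 (r = 0.92), a cofactor of mRNA decapping, and Cox6a2 (r = 0.92), the heart and muscle form of a cytochrome c oxidase subunit. Their mRNA differences were -1.68, 0.58 and 1.86, against 1.87 for Cryab.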

How the data were processed

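The deposited table holds 1 intensity per probe set and array on a linear scale, for 20 arrays of 1 sample each. Per the labels' protocols, total RNA became biotin-labelled cDNA, and fragmented DNA was amplified by T7 transcription before labelling. The sources used here do not give the tool with which the authors summarised and scaled the intensity values. The trimmed mean, with 2% removed at each end, was almost the same on every array.

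Here every array was divided by its median and multiplied by 100, floored at 10 and put on the log2 scale (Python 3.11.15, pandas 2.3.3, numpy 2.4.6). Genes came from the platform annotation, which can be old. Probe sets with several genes (436) or not listed (9780) were left out, as were the 57 controls. Of the 20826 single-gene probe sets, 20758 matched the current gene table by gene ID and 0 were renamed. A gene outside the members was represented by its brightest probe set on the mRNA arrays, and the first probe set of a member is likewise the brighter one. The members and gene lists were chosen with earlier results of these data known. Genes named were the members, Hsf1, the neighbours Hspe1 and Hspb2, Nppa and Nppb, the 4 largest mRNA differences each way of the chaperone list, and the 3 genes most like Cryab; Hspb3 and Cryaa were named after their values were seen, to complete the small heat shock proteins. The calculations were tested on simulated data. Alternatives were the values as deposited, quantile normalization, floors of 1 and 50, no level filter, the mean over a gene's probe sets, and ChIP differences without pre-IP. Precision is limited by the number of arrays, 1 per group, which leaves no replicate error. Figures were drawn with matplotlib 3.10.9.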

Additional observations from a re-analysis of the deposited data

Results flagged for a closer look

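At 4 places a mark lay on opposite sides of pre-IP in the 2 hearts with a difference of 2-fold or more, and none of these differences was tested, since each group had 1 array. Hspb1 K4me3 enrichment differed by -1.29, with -0.63 in the failed heart and 0.66 in the normal heart. Hspa5 K4me3 enrichment differed by -1.89, with -0.40 in the failed heart and 1.48 in the normal heart. Hspa5 K9me3 enrichment differed by -2.04, with -0.28 in the failed heart and 1.75 in the normal heart. K27me2 enrichment at the first Dnajb1 probe set differed by 1.31, with 0.20 in the failed heart and -1.11 in the normal heart. The pre-IP arrays differed at the same probe sets, by 0.65 at Hspb1, 1.14 at Hspa5 and -0.77 at the first Dnajb1 probe set. None of the 4 reached 2-fold on the ChIP arrays without pre-IP. The differences there were -0.64 for Hspb1 K4me3, -0.74 for Hspa5 K4me3, -0.90 for Hspa5 K9me3 and 0.54 for K27me2 at the first Dnajb1 probe set.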

How the results depend on the processing

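Of 290 values recomputed under an alternative, 272 stayed within 1.5-fold of the reported one and 18 moved further. Of the values of 2-fold or more, 0 changed sign. A smaller value could change sign within 1.5-fold: the members' median mRNA difference was -0.07 with quantile normalization, in place of 0.43. The totals include both other floors, under which no value moved further. Each floor added 33 values of single genes or probe sets and 32 counts and medians to those that stayed. The lower floor could change no member value, since none was at the floor used above. Among values of single genes or probe sets, leaving out pre-IP moved 6 and left 3 within 1.5-fold. Quantile normalization moved 4 of them and left 29. Among counts and medians, 8 stayed without pre-IP, and quantile normalization moved 4 and left 28. With the values as deposited, 8 chaperone genes were 2-fold higher and 2 lower, in place of 19 and 0, and quantile normalization gave 7 higher and 1 lower. Their medians under these 2 settings were 0.33 and 0.32, against -0.04 and 0.01 over all genes past the filter. The same 2 settings moved the members' median K4me2 enrichment in the failed heart to -0.44 and -0.37, in place of 0.24, and in the normal heart to -0.16 with either, in place of 0.29. With quantile normalization 1 member probe set in place of 2 was 2-fold higher in mRNA, since Hspd1 was at 0.84. The cause of these shifts was not tested. Among single members, the mean over its probe sets gave Hsph1 an mRNA difference of -0.41 in place of 0.40. The counts of listed small heat shock proteins, recomputed by a choice made after seeing the data, were 5 of 5 under both scalings and both other floors, with medians of 1.33 to 1.91, and 4 of 5 with a median of 1.41 for the mean over probe sets. The 1 array per group limits what these values can show. No paired analysis was possible because each group had 1 sample.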
